A study of Mus musculus with 120 samples.

Results

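The microRNAs described here are the members of the mir-466, mir-467, mir-669 and mir-297 families, most of which lie in introns of the mouse gene Sfmbt2. They were taken from the deposited tables as every microRNA row whose name starts with Mir466, Mir467, Mir669 or Mir297, which gave 58 of 1123 microRNA rows. Of these 58 rows, 24 were Mir669, 15 were Mir467, 13 were Mir466 and 6 were Mir297 rows. In the table of base substitutions the same families held 63 of 394 mature microRNA rows. The choice used names alone.

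Sfmbt2 encodes a Polycomb-group protein, and in the mouse an intron of the gene carries a large array of microRNA hairpins that arose by repeated duplication. The gene is imprinted and is expressed from the paternal copy in the placenta, where the array is known for its high expression and for its part in placental growth. A microRNA hairpin is cut out of its host transcript by Drosha and Dgcr8, exported by Xpo5 and cut again by Dicer1, and the short mature strand is bound by an Argonaute protein (Ago1 to Ago4). Bases 2 to 8 of the mature strand, the seed, pair with target RNAs. Sperm made in the testis pass through the caput and then the cauda epididymis, whose fluid holds vesicles called epididymosomes that can fuse with them.

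All mice were fed control diet and were 8 to 12 weeks old, and RNA under 40 nt was cloned in every library. Cauda sperm were either unwashed (labelled No SLB) or washed with 0.01% SDS and 0.005% Triton-X (low), 0.1% SDS and 0.005% Triton-X (mid) or 0.1% SDS and 0.5% Triton-X (high), with 5 numbered sets of 4 libraries. The titles of these libraries name FVB, a mouse strain, followed by CDIET in sets 2 to 5 and by TA, which the labels do not explain, in set 1. Whole sperm, sperm heads and sperm tails came from the testis (n = 2, 3 and 2, all washed with 0.01% SDS and 0.005% Triton-X) and from the cauda epididymis (n = 6, 3 and 4, of which 4, 2 and 3 had a hypotonic wash and the others the detergent wash). Libraries of cauda and of caput sperm were made both with polynucleotide kinase (PNK, which repairs RNA ends) and with no enzyme (n = 3 each). Cauda epididymis and testis tissue were cloned with no enzyme or after AlkB (which removes base methyl groups), PNK, a PNK named 3 minus or RppH (which trims 5′ triphosphates), with 2 libraries marked acid and 2 marked base for each (n = 4). A maturation series held primary spermatocytes, early and late round spermatids and caput sperm (1 library each), testicular sperm (n = 4, each title with a different mark of preparation), cauda sperm (n = 7) and cauda epididymosomes (n = 3). Of the 7 cauda sperm libraries, 6 form 3 pairs that share a number in their titles. Each pair holds a title marked 9W and a title marked 12W, read here as weeks, and the unpaired library has no such mark. The 7 were used as a single group across these marks. The labels do not say what the shared number marks. If it marks a shared source, p-values over the 7 are too small. A fusion of caput epididymosomes with testicular sperm (n = 2) had a mock fusion as its control (n = 2). Finally, testis, caput epididymis and cauda sperm were sequenced with 4-thiouracil (4-TU) and without it, 1 library each. The titles mark testis as neg, caput as pos and cauda sperm as test, with and without 4-TU. 4-TU is a uracil analog that, once built into RNA, is read in part as T-to-C substitutions. Beyond these marks the labels used here do not say which cells could use it. The labels do not say which libraries came from separate animals, so a p-value here measures only how libraries vary, which may be technical.

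RefSeq mature sequences were found for 8 genes of the families, of which Mir466i and Mir467f are among the 58 rows. None of the 8 lies in the Sfmbt2 array, and Mir467d, Mir669a-2 and Mir297b, which the results name most, are not among them. Of the 8, 6 are shown here for the letter pattern of the family names. Mir466i is a row with reads, Mir467f is a row with none, and the other 4 are relatives that are not among the 58 rows. Mature rows named mir-466q-5p and mir-466j-3p do occur among the base substitutions. The mir-466q-5p row has 9 U positions and the Mir466q sequence shown holds 3 U, so these are different strands. Each is written 5′ to 3′ with the seed in capitals. The entries are on build GRCm38.p6, at chr13:17747552-17747573 (plus strand) for Mir466i-3p, chr11:69635419-69635439 (minus) for Mir467f, chr3:28419988-28420007 (plus) for Mir466q, chr3:85467396-85467418 (plus) for Mir466k, chr3:115979905-115979924 (plus) for Mir669n and chr10:60960802-60960824 (plus) for Mir466j.
mmu-miR-466i-3p: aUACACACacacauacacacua
mmu-miR-467f: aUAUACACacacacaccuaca
mmu-miR-466q: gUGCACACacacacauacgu
mmu-miR-466k: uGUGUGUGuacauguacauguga
mmu-miR-669n: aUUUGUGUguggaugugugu
mmu-miR-466j: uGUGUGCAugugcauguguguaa
The first 3 are built on runs of CA, with a longest run of 5, 6 and 6 units, and the last 3 on runs of UG, with 4, 4 and 3 units. All 8 seeds found differ from one another, those of Mir467g and Mir467h included. Members of the families can differ by so few letters that the authors' counting could split or share reads between them, so values of single rows are less certain than sums over a family.

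Of the 58 rows, 54 lie in introns of Sfmbt2 (chromosome 2, 10370510 to 10595253, plus strand, mm10), 3 lie elsewhere (Mir297-1 on chromosome 7, Mir467f on chromosome 11 and Mir466i on chromosome 13) and Mir297-2 was not matched to an annotated gene. Only 28 rows had a read in any library. The members gathered 28476 reads over all libraries, of which Mir467 rows held 15583, Mir669 rows 8958, Mir297 rows 2725 and Mir466 rows 1210. Mir467d alone held 32.62% of them.

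The length of a row in the deposited tables went with its reads. The 18 rows of 71 to 125 bases held 28361 reads, and each of them had some. The other 40 rows are 9 to 34 bases long in the tables, although RefSeq gives 73 to 125 bases for the 39 of these genes that it lists, and they held 115 reads (0.404%) spread over 10 rows. Rows of at most 40 bases made up 68.966% of the members and 4.507% of the 1065 other microRNA rows. A member listed at 0 can therefore not be read as absent from a library, and the part of row length in the low values was not tested.

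**Figure D1:**
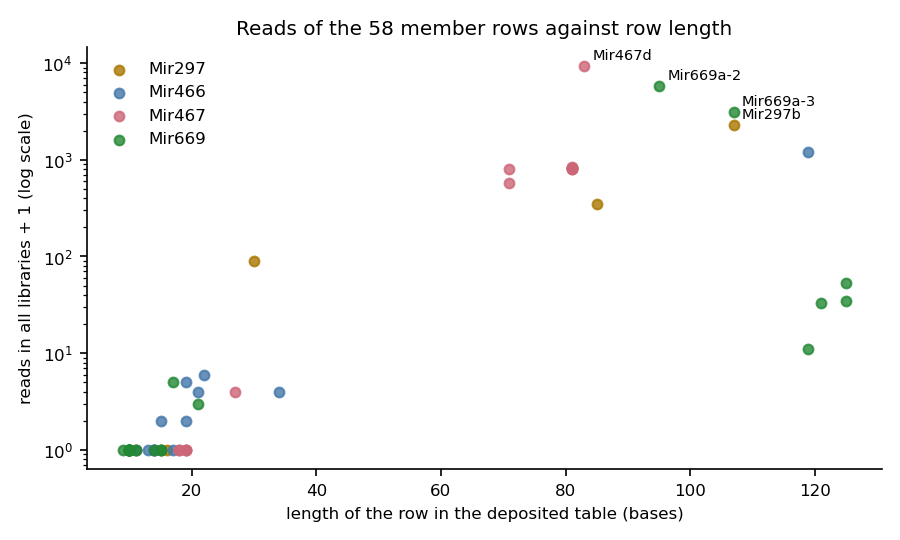
Reads of each of the 58 member rows summed over all libraries plus 1 (log scale) against the length of the row in the deposited table in bases, coloured by family. The 40 rows of 9 to 34 bases lie near the bottom, and Mir467d stands highest among the rows of 71 bases or more.

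Library totals were 3292733 to 13267407 reads in the washes, 5749845 to 56011205 for heads and tails, 156347 to 2533461 in the kinase series of sperm, 536488 to 19566143 for cauda epididymis, 228043 to 14664480 for testis, 4842252 to 22190681 in the maturation series and 9719328 to 15998707 for the fusion. At these depths 1 library gave between 3 and 1714 reads over all members in the sperm and fusion tables and in the kinase comparisons of tissue. Counts for cauda epididymis and testis tissue hold no gene rows, so their library totals cover fewer kinds of RNA than the other totals. Shares and CPM of tissue therefore do not compare with those of sperm or epididymosomes, here or in a figure. The share of reads that were microRNA differed widely between groups. Among libraries with gene rows the lowest was 0.5014%, in a cauda sperm library of the maturation series. Among tissue libraries the highest was 94.3%, in cauda epididymis treated with RppH (84.8% at most in untreated ones). Levels are therefore given both as reads per 1000000 reads of the library (CPM) and as reads per 1000000 microRNA reads of the library (microRNA CPM), and several directions below differ between these scales. In bulk libraries, fewer cells of a type and less RNA per cell cannot be told apart. Markers of other cells moved with many of the comparisons, and their values stand beside them.

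After a detergent wash of cauda sperm no member was called changed in CPM in a fit without the set as a block, and 0, 2 and 5 of 13 members were lower at the low, mid and high wash with it. Mir467d, the most abundant member, stood at 7.72, 10.6, 12.7, 20.8 and 20.9 CPM in unwashed sets 1 to 5. After the high wash it stood at 11.3, 7.05, 4.59, 15.7 and 16.6 CPM in the same sets. It was lower in 4 of 5 sets after the high wash, and the groups overlapped.

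Mir669a-2 was at 4.38 to 21.1 CPM in unwashed sperm (median 13.02) and at 4.48 to 13.1 CPM after the high wash (median 5.45). Mir297b was at 1.51 to 10.04 CPM unwashed (median 5.17) and at 1.75 to 6.12 CPM after the high wash (median 2.39). The 3 wash comparisons share the unwashed libraries. These ranges overlapped as well, and sets 4 and 5 were the highest before the wash for both. Summed over all members, the level was 56.6 ± 25.8 CPM in unwashed sperm (SD, n = 5) and 41.2 ± 22.2, 47.1 ± 31.3 and 39.6 ± 19.3 CPM after the low, mid and high wash.

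By edgeR's quasi-likelihood test 0 of 13 members tested passed an adjusted p of 0.05 at the low, mid or high wash, with 0, 0 and 1 at an unadjusted p under 0.05 and 0 by DESeq2 at each. Over all 12615 rows tested, 0.0713%, 2.78% and 1.56% passed. The member with the lowest unadjusted p after the high wash was Mir467a-4, with a log2 fold change of −1.33 ± 0.62 (SE, edgeR, adjusted p 0.389). The members' median log2 fold change was −0.49, −0.73 and −0.92, beside −0.83, −1.54 and −1.40 over the microRNA rows and 0.02 over all rows at each wash. With the set number as a block, which the sets' correlated deviations allow, 0, 2 and 5 of 13 members were lower, beside 2.20%, 13.1% and 8.36% of all rows in either direction. The 2 at the mid wash were Mir669a-2 (−1.14 ± 0.23, adjusted p 0.00176 by edgeR) and Mir297b (−1.04 ± 0.26, adjusted p 0.00755).

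Set against microRNA reads alone, the same libraries gave the opposite direction, with the members making up more of the microRNA that stayed with washed sperm. The members were 385 ± 169 microRNA CPM in unwashed sperm and 781 ± 308, 961 ± 410 and 787 ± 186 after the low, mid and high wash (SD, n = 5). By set, the unwashed values were 129, 350, 386, 585 and 473, and the values after the high wash were 634, 704, 681, 1096 and 819. Every set was higher after each wash than before it, and at the high wash the groups did not overlap.

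In fits on microRNA rows alone with the set as a block, a choice made after seeing the data, 2, 6 and 4 members were higher at the low, mid and high wash. Over all microRNA rows tested there, 50.6%, 72.2% and 67.4% passed in either direction, so the members' share is not above the background. Mir466i, of which the 3p strand is shown above, was higher at each of them, by 0.93 ± 0.25, 0.80 ± 0.27 and 0.63 ± 0.25 (log2, SE, adjusted p 0.00333, 0.0104 and 0.0332 by edgeR). Mir467d was higher at the mid and high wash, by 0.89 ± 0.19 and 0.49 ± 0.19 (adjusted p 0.000328 and 0.0304 by edgeR).

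**Figure D2:**
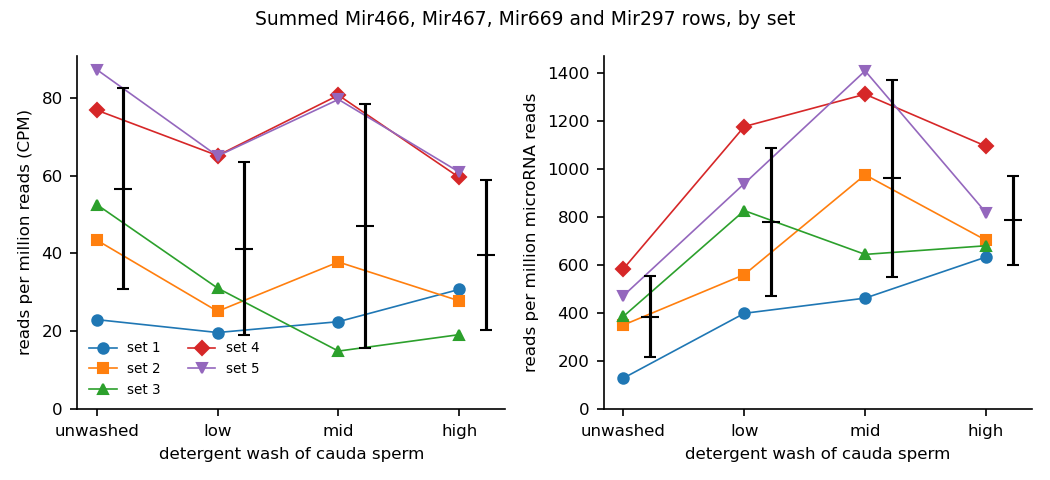
Sum of all member rows in the 5 sets of cauda sperm without wash and after the low, mid and high detergent wash, as CPM (left) and as microRNA CPM (right). Coloured lines join the libraries of a set, and black bars give the mean and SD of 5 libraries; the unwashed mean is the highest of the 4 on the left (56.6 CPM) and the lowest on the right (385).

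Markers of other cells were also lower after the washes. The mir-200 list, of epithelium (5 of 5 microRNAs found), summed to 5683 to 8394 CPM in unwashed sperm and to 530.1 to 1485 CPM after the high wash. The Hox-cluster list of the distal epididymis (5 of 5) went from 42266 to 97412 CPM to between 8223 and 21689 CPM, and the blood list (5 of 5) from 1541 to 2856 CPM to between 97.0 and 334.9 CPM. The germ-cell list (8 of 9 found) stood at 3969 to 7689 CPM and at 2500 to 5170 CPM, and no found marker was at 0 in these 2 groups. The microRNA share itself was 12.4 to 18.5% of reads in unwashed sperm and 2.81 to 7.44% after the high wash. The part of these cells in the members' levels was not tested.

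Within cauda sperm, heads held less of several members than tails in CPM, but not in microRNA CPM. Mir297b stood at 0.731 and 0.409 CPM in the heads after the hypotonic wash and at 5.26 CPM in the detergent-washed head library. In tails it stood at 4.55, 2.75 and 2.36 CPM after the hypotonic wash and at 26.5 CPM in the detergent-washed library. Within each wash the heads were lower, while the heads after detergent exceeded the tails after the hypotonic wash.

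Mir467d stood at 6.58, 3.76 and 9.07 CPM in the 3 head libraries and at 9.82, 11.01, 12.9 and 29.8 CPM in the 4 tail libraries, with no overlap. Mir669a-2 stood at 5.28, 2.13 and 3.68 CPM in heads and at 6.93, 5.796, 11.9 and 32.0 CPM in tails, again with no overlap. The detergent-washed tail library was the highest of all for both. Summed over all members, heads had 18.4 ± 8.31 CPM (SD, n = 3) and tails 57.5 ± 47.3 CPM (n = 4), and without the detergent-washed tail library the tails ran from 25.5 to 44.7 CPM.

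With the wash as a term, 6 of 14 members tested were lower in heads and 0 higher by edgeR, beside 24.1% lower over all 9706 rows and 37.9% lower over the 369 microRNA rows. The 6 were Mir467b (−2.11 ± 0.84, log2, SE), Mir297b (−2.09 ± 0.48), Mir467a-4 (−1.88 ± 0.68), Mir669a-2 (−1.64 ± 0.51), Mir669a-3 (−1.63 ± 0.57) and Mir467d (−1.19 ± 0.43), with adjusted p from 0.00119 to 0.049 in edgeR's test. The members' median was −1.41, that of the microRNA rows −1.31 and that of all rows −0.68. Within the hypotonic wash 2 members were lower, beside 27.9% of all rows in either direction, and DESeq2 called 1 over both washes. The detergent wash had 1 library of heads and 1 of tails, so it allows no test of its own. Scaled on microRNA rows alone 0 passed, beside 5.93% of microRNA rows, Mir467d stood at 0.095 (log2), and the summed members were 677 ± 308 microRNA CPM in heads and 659 ± 482 in tails. MicroRNA made up 2.03 to 3.70% of reads in heads and 7.33 to 9.28% in tails, and the Hox-cluster list 2732 to 6789 CPM in heads and 17389 to 38706 CPM in tails.

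Testicular sperm showed heads and tails in the same order, with no call. Mir467d stood at 1.30, 2.63 and 2.60 CPM in heads and at 5.12 and 4.80 CPM in tails, with no overlap. Mir669a-2 stood at 1.90, 2.80 and 0.577 CPM in heads and at 5.14 and 3.58 CPM in tails, with no overlap either. The summed members were 8.75 ± 3.53 CPM in heads (SD, n = 3) and 20.6 ± 5.68 CPM in tails (n = 2), and 567 ± 112 and 478 ± 95.8 microRNA CPM. By edgeR 0 of 14 members and 0% of the 9706 rows passed, with 3 members at an unadjusted p under 0.05 and 0 members by DESeq2.

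Whole cauda sperm held more of most members than whole testicular sperm in CPM in the same table. Mir297b stood at 0.743 and 0.936 CPM in testicular sperm, at 2.02, 1.65, 5.58 and 3.35 CPM in cauda sperm after the hypotonic wash and at 13.3 and 16.2 CPM in detergent-washed cauda sperm. All 6 cauda libraries exceeded both testicular ones. Mir669a-2 stood at 3.24 and 4.39 CPM in testicular sperm and at 6.02 to 17.6 CPM in cauda sperm (median 9.76), also with no overlap.

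Mir467d, by contrast, stood at 7.09 and 6.08 CPM in testicular sperm and at 5.29 to 26.0 CPM in cauda sperm, where 2 of the hypotonic libraries lay at 6.39 and 5.29 CPM. Its ranges overlapped. With the wash as a term, 12 of 14 members were higher in cauda sperm and 0 lower by edgeR, beside 18.3% higher over all 9706 rows and 43.1% higher over the microRNA rows.

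The largest log2 fold changes were those of Mir297b (4.35 ± 0.61, SE, edgeR adjusted p 6.87e-06), Mir467a-2 (3.28 ± 0.70), Mir297a-4 (3.07 ± 0.81), Mir467a-9 (2.73 ± 0.73), Mir467a-5 (2.67 ± 0.78) and Mir467a-1 (2.66 ± 0.58), the last 5 at adjusted p from 0.000457 to 0.0071. The members' median was 2.56, beside 1.46 over the microRNA rows and −0.19 over all rows. The other 6 called members ranged from 1.60 (Mir467d) to 2.57 (Mir467a-4), while Mir467b and Mir669a-3 did not pass. With detergent-washed cauda sperm alone 11 members were higher, beside 35.8% of all rows in either direction, and the members' median was 2.09. With hypotonic cauda sperm alone, where wash and location cannot be told apart, 8 were higher, beside 44.5%, and the median was 1.48. Both medians lie below the 2.56 of the fit with the wash as a term. Without testicular sperm replicate 2 the number was 7.

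In microRNA CPM the members did not separate whole cauda from whole testicular sperm. The sums were 505 ± 367 microRNA CPM in cauda sperm (SD, n = 6, from 179 to 1224) and 613 and 462 in testicular sperm. Scaled on microRNA rows alone, 2 members were higher, Mir297b by 3.21 ± 0.62 and Mir467a-2 by 2.35 ± 0.74 (log2, SE, adjusted p 0.00032 and 0.0176 by edgeR), beside 34.3% of the microRNA rows in either direction. Mir297b was thus the member whose rise was called at the lowest p on both scales. The mir-200 list summed to 26.7 and 32.4 CPM in testicular and 350.8 to 2964 CPM in cauda sperm and the Hox-cluster list to 2025 and 3071 and to 15853 to 135873 CPM. Their part in the members' levels was not tested.

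In the maturation series the order of cauda and testicular sperm was the other way round in CPM. Mir467d stood at 19.8, 19.5, 23.9 and 6.08 CPM in testicular sperm and at 2.07 to 5.21 CPM in the 7 cauda sperm libraries (median 3.15). Mir669a-2 stood at 3.51, 9.42, 10.4 and 3.75 CPM in testicular sperm and at 0.840 to 1.74 CPM in cauda sperm (median 1.42). Mir669a-3 stood at 3.30, 6.72, 7.11 and 2.26 CPM and at 0.333 to 1.43 CPM (median 0.750). For each of these 3 every testicular library exceeded every cauda library.

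By edgeR 10 of 13 members were lower in cauda sperm and 0 higher, beside 29.4% lower over all 7669 rows and 62.8% lower over the microRNA rows. The 6 largest were Mir669a-3 (−2.08 ± 0.42, log2, SE), Mir669a-2 (−1.86 ± 0.41), Mir467d (−1.63 ± 0.38), Mir467a-4 (−1.59 ± 0.51), Mir467a-8 (−1.55 ± 0.49) and Mir467b (−1.51 ± 0.62), at adjusted p from 4.15e-05 to 0.0289 in edgeR's test. The members' median was −1.30, beside −1.64 over the microRNA rows and 0.66 over all rows. Without testicular sperm replicate 3 the number called was 6. Scaled on microRNA rows alone it was 0, beside 49.1% of microRNA rows, and the sums in microRNA CPM were 388 to 1024 in cauda sperm (median 796) and 119, 754, 362 and 485 in testicular sperm, which overlapped.

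The blood list was high in the testicular sperm libraries of this series. With 5 of 5 found and none at 0, it summed to 5137 to 102899 CPM there and to 24.2 to 78.7 CPM in cauda sperm, against 95.1 and 105.5 CPM in the whole testicular sperm of the heads and tails table. MicroRNA made up 4.04 to 30.7% of reads in these testicular libraries and 0.501 to 2.56% in cauda sperm. The titles also mark each testicular library differently, so preparation and location cannot be told apart, and the part of blood RNA in the members' levels was not tested.

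**Figure D3:**
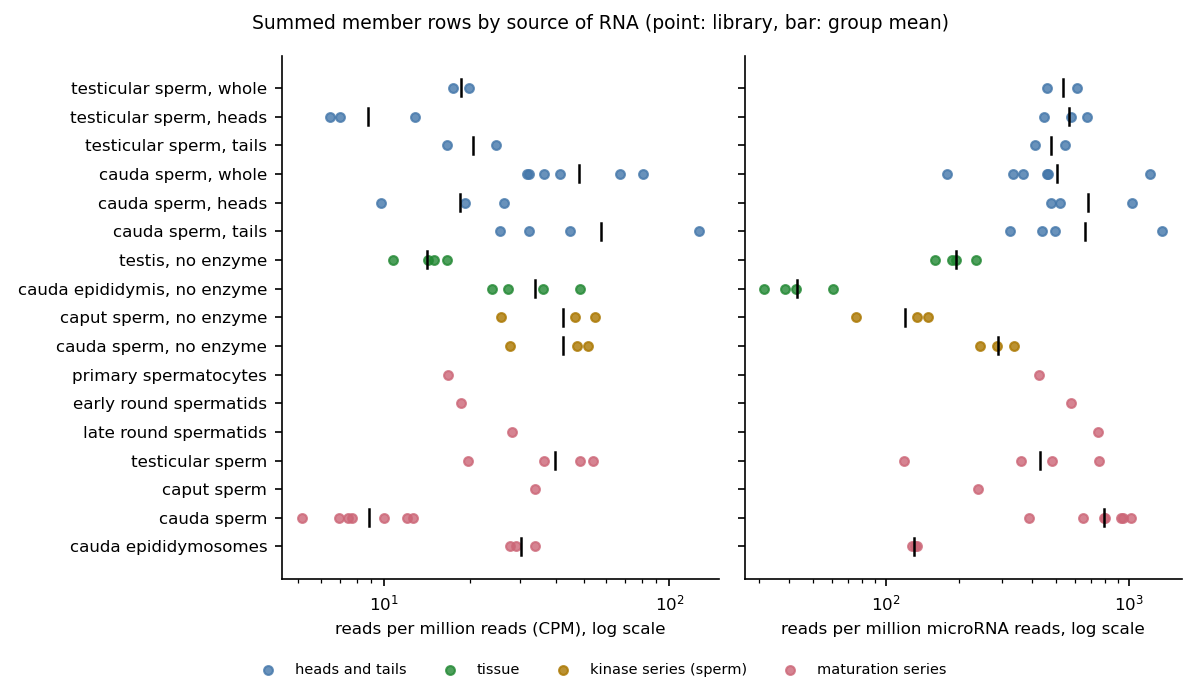
Sum of all member rows in each library by source of RNA, as CPM (left) and as microRNA CPM (right), both on log axes; bars give group means. Any tissue group shown rests on totals without gene rows, so its CPM do not compare with the others. Cauda sperm of the maturation series have the lowest mean CPM of the groups with a comparison in that series (8.84) and a mean of 789 microRNA CPM, and cauda epididymosomes lie together at 128 to 134 on the right.

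The earlier stages and caput sperm had 1 library each. The summed members were 16.7 CPM in primary spermatocytes, 18.6 CPM in early and 28.1 CPM in late round spermatids, and 33.7 CPM in caput sperm. In the same order they were at 428, 579, 747 and 239 microRNA CPM. Mir467d stood at 6.85, 7.65 and 12.6 CPM in the 3 testis cell libraries and at 15.02 CPM in caput sperm. These differences have no replicate check.

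In cauda epididymosomes 3 of 13 members were higher than in cauda sperm in CPM, and the summed members were higher in CPM and lower in microRNA CPM. Mir669a-2 stood at 6.76, 5.70 and 5.10 CPM in epididymosomes, and Mir467d at 13.7, 11.01 and 12.3 CPM, all above the 7 cauda sperm libraries. By edgeR 3 of 13 members were higher in epididymosomes than in cauda sperm and 0 lower, beside 10% higher over all rows and 67.8% higher over the microRNA rows. They were Mir669a-3 (1.40 ± 0.45, log2, SE), Mir669a-2 (1.38 ± 0.44) and Mir467a-4 (1.32 ± 0.53), at adjusted p of 0.0118, 0.0116 and 0.0491 by edgeR. The members' median of 0.80 stood below the 2.46 of the microRNA rows and above the −0.03 of all rows, and Mir297b (−0.25 ± 0.48) and Mir467a-2 (−0.03 ± 0.59) were not above 0.

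Scaled on microRNA rows alone, 8 of 13 members were instead lower in epididymosomes by edgeR, among them Mir297b (−2.23 ± 0.52, log2, SE, adjusted p 0.0016) and Mir467d (−0.99 ± 0.31, adjusted p 0.0113), beside 65.9% of microRNA rows in either direction. The summed members were 128, 131 and 134 microRNA CPM in epididymosomes and 388 to 1024 in cauda sperm, with no overlap. MicroRNA made up 21.1 to 26.5% of reads in epididymosomes, and the mir-200 list summed to 19352 to 27945 CPM there and to 59.8 to 741 CPM in cauda sperm. Against testicular sperm 0 of 13 members passed by edgeR, with 1 at an unadjusted p under 0.05 and 0 by DESeq2, beside 71.3% of all rows in either direction. Without testicular sperm replicate 1 that number was 3, without replicate 4 it was 1, and scaled on microRNA rows alone 5 were lower, beside 68.5% of microRNA rows in either direction. The 3 comparisons of the maturation series share libraries.

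The titles of this series end in a number whose meaning the labels do not give, and the 3 epididymosome libraries carry one that no cauda sperm library carries. The number and the source cannot be told apart by setting these 2 groups side by side. With the number as a term, a choice made after seeing the data, which joins the groups through testicular sperm, 0 of 13 members were called between epididymosomes and cauda sperm by edgeR, beside 13.7% of all rows in either direction, and Mir669a-3 stood at 0.49 and Mir669a-2 at 0.36 (log2). In that fit 2 members were lower in epididymosomes than in testicular sperm, beside 51% of all rows. There 8 members were lower in cauda than in testicular sperm, beside 61.7%.

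Within a shared number the same order was seen for cauda and testicular sperm in CPM. Under one number the summed members were 7.72 CPM in 1 cauda library and 36.3 CPM in 1 testicular library (646 and 119 microRNA CPM). Under another they were 5.13 to 12.6 CPM in 6 cauda libraries and 48.6 and 19.6 CPM in 2 testicular ones (388 to 1024, and 754 and 485 microRNA CPM). Under the third, the epididymosomes had 27.7 to 33.9 CPM and the single testicular library 53.8 CPM (128 to 134 and 362 microRNA CPM).

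**Figure D4:**
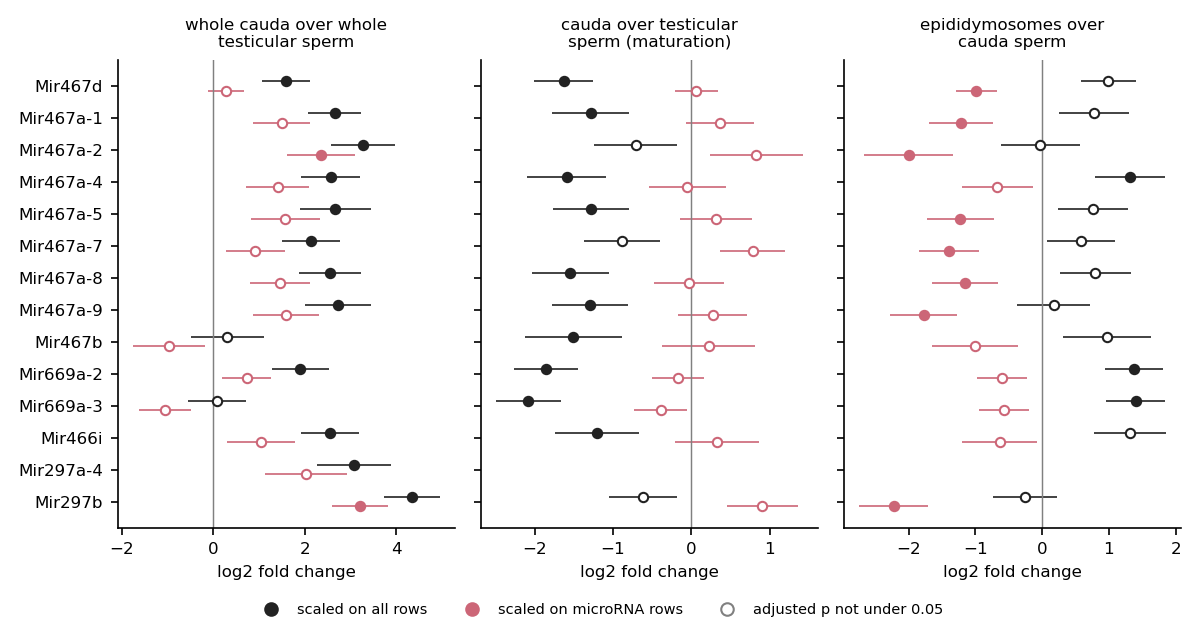
Log2 fold changes of 14 members with standard errors in 3 comparisons, whole cauda over whole testicular sperm, the same locations in the maturation series, and cauda epididymosomes over cauda sperm, scaled on all rows (black) or on microRNA rows (red); open symbols have an adjusted p of 0.05 or more. Mir297b reaches 4.35 in the first panel, the called black points lie below 0 in the second and above it in the third, and the called red points of the third panel lie below 0.

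In whole tissue the members were higher in cauda epididymis than in testis in CPM and lower in microRNA CPM. Mir467d stood at 16.5, 11.5, 8.39 and 19.1 CPM in untreated cauda epididymis and at 4.23, 6.06, 4.40 and 6.22 CPM in untreated testis, with no overlap. Mir669a-2 stood at 6.47, 3.41, 7.16 and 10.6 CPM and at 2.25, 2.25, 3.83 and 2.58 CPM, where the lowest epididymis library lay within the testis range. The summed members were 33.9 ± 10.95 CPM in epididymis and 14.1 ± 2.47 CPM in testis (SD, n = 4 each), with no overlap.

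By edgeR 3 of 4 members were higher in epididymis and 0 lower, beside 45.5% higher over all 1207 rows and 70.9% higher over the microRNA rows. They were Mir467d (1.15 ± 0.28, log2, SE), Mir669a-3 (1.12 ± 0.38) and Mir669a-2 (1.07 ± 0.29), at adjusted p of 0.00168, 0.0112 and 0.00198 by edgeR, and the members' median of 1.09 stood below the 2.23 of the microRNA rows. Scaled on microRNA rows alone 6 members were lower in epididymis, beside 84.6% of microRNA rows in either direction, and Mir467d stood at −0.67. The sums were 42.4, 38.4, 31.6 and 60.3 microRNA CPM in epididymis and 159, 187, 234 and 195 in testis, with no overlap. MicroRNA made up 70.7 to 84.8% of reads in epididymis and 6.72 to 7.66% in testis. Without the untreated base epididymis replicate 2 the number called was 0, without acid replicate 1 it was 1 and without base replicate 1 it was 5.

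PNK treatment, which lets RNAs with other ends into the library, went with a lower share of reads for both members tested in cauda epididymis and in sperm, as it did for most microRNA rows. In cauda epididymis Mir467d stood at 2.51, 1.45, 0.867 and 1.74 CPM with PNK, all below the 8.39 to 19.1 CPM without it. By edgeR both members tested were lower, beside 35.2% lower over all 1094 rows and 83.2% lower over the microRNA rows. Mir467d fell by 3.77 ± 0.47 (log2, SE, edgeR adjusted p 7.27e-09) and Mir669a-2 fell by 2.52 ± 0.45 (adjusted p 6.49e-06), beside a median of −2.23 over the microRNA rows. With the replicate number as a block, 3 of 5 members tested were lower, beside 65% of all 1150 rows in either direction. Scaled on microRNA rows alone 1 was lower, beside 42.1% of microRNA rows, and the sums were 43.2 ± 12.3 microRNA CPM without and 23.4 ± 4.43 with PNK (SD, n = 4 each), with no overlap.

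In cauda sperm Mir467d stood at 6.32, 12.6 and 14.1 CPM without PNK and at 0, 0.755 and 0.739 CPM with it, and Mir669a-2 at 6.32, 10.2 and 11.5 CPM and at 0, 0 and 0.739 CPM. The PNK libraries held only 3, 5 and 6 reads over all members. Both members tested were lower by edgeR, beside 28.8% lower over all 1489 rows and 87.4% lower over the microRNA rows. Mir669a-2 fell by 4.29 ± 0.92 (log2, SE, edgeR adjusted p 0.000376) and Mir467d fell by 3.70 ± 0.73 (adjusted p 0.000148). Leaving out any 1 of the 6 libraries left 1 call, Mir467d, the single member that then passed the filter on low counts.

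In caput sperm Mir467d stood at 16.1, 19.2 and 18.3 CPM without PNK and at 0, 5.08 and 6.41 CPM with it, on 4, 3 and 4 reads over all members in the PNK libraries. Mir669a-2 stood at 16.1, 0 and 9.16 CPM without and at 0, 5.08 and 0 CPM with it, so its ranges overlapped and it was higher with PNK in sample 2. Mir467d fell by 2.19 ± 0.77 and Mir669a-2 fell by 2.92 ± 1.16 (log2, SE, adjusted p 0.0253 and 0.0467 by edgeR), beside 27% lower over all rows and 78.7% over the microRNA rows. With the sample number as a block 1 of the 2 passed, DESeq2 called 0, and 0 passed without caput PNK replicate 1, without PNK replicate 3 or without untreated replicate 3. Without untreated replicate 1 or PNK replicate 2, 1 passed. In microRNA CPM the sums were 119 ± 39.1 without and 329 ± 139 with PNK in caput sperm (SD, n = 3 each), higher with no overlap, and 289 ± 47.0 and 161 ± 62.9 in cauda sperm, lower with no overlap. By family, the caput means without and with PNK were 5.91 and 166 for Mir466, 65.5 and 122 for Mir467, 44.2 and 41.7 for Mir669 and 3.76 and 0 for Mir297. All 5 Mir466 reads with PNK were Mir466i, which lies outside the Sfmbt2 array, of 11 reads over all members.

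On the scale of all rows the PNK effect was not shown to differ between the 2 locations. In microRNA CPM the sums moved in opposite directions, as given above, and that difference was not tested. The interaction was −1.51 ± 1.25 for Mir467d and −1.37 ± 1.99 for Mir669a-2 (log2, SE, adjusted p 0.533 and 0.774 by edgeR), with 0 of 2 members passing, 0 at an unadjusted p under 0.05 and 0 by DESeq2, beside 9% of all rows. Cauda and caput sperm without PNK also had 0 of 2 members called by edgeR, 0 at an unadjusted p under 0.05 and 0 by DESeq2, beside 51.2% of all rows, and Mir467d differed by −0.07 ± 0.46 (log2, SE, adjusted p 0.929). The summed members were 42.3 ± 12.9 CPM in cauda and 42.5 ± 15.2 CPM in caput sperm, and 289 ± 47.0 and 119 ± 39.1 microRNA CPM, where the groups did not overlap. In testis, PNK gave 0 of 3 members called by edgeR, 0 at an unadjusted p under 0.05 and 0 by DESeq2, beside 10.8% of all 1100 rows. Mir467d stood at 4.23, 6.06, 4.40 and 6.22 CPM without PNK and at 2.27, 2.73, 1.82 and 0 CPM with it, with no overlap (−1.23 ± 0.68, log2, SE, adjusted p 0.37 by edgeR). The ranges of Mir669a-2 and Mir669a-3 overlapped. The sums were 14.1 ± 2.47 CPM without and 11.6 ± 1.40 CPM with it (SD, n = 4 each). The library with Mir467d at 0, base replicate 2, had 228043 reads in all and 3 over all members.

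Fusion of testicular sperm with caput epididymosomes did not bring a called rise in any member. Mir467d stood at 27.0 and 43.3 CPM after the mock fusion and at 22.7 and 25.6 CPM after the fusion, so both fused libraries lay below both mock libraries. Mir669a-2 stood at 11.8 and 15.9 CPM and at 8.72 and 8.81 CPM, in the same order. Mir466i, outside the Sfmbt2 array, stood at 1.44 and 2.02 CPM and at 1.98 and 2.44 CPM, which overlapped.

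By edgeR 0 of 14 members passed, with 2 at an unadjusted p under 0.05 and 0 by DESeq2, beside 6.9% of all 5844 rows, nearly all of them higher after fusion. The member with the lowest p was Mir467a-4 (−1.66 ± 0.59, log2, SE, adjusted p 0.127 by edgeR). Without mock replicate 1 the number called was 2. The members' median was −0.77, beside −0.40 over the microRNA rows and 0.12 over all rows. Summed, they were 65.6 and 102 CPM after the mock and 51.6 and 57.6 CPM after the fusion, and 423 and 903 against 371 and 354 microRNA CPM.

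Fragments of the host transcript were lower in cauda than in testicular sperm in both tables that hold these sperm. Reads from the Sfmbt2 gene row, which in a library of RNA under 40 nt stand for fragments of the transcript, were at 3.65 and 3.30 CPM in whole testicular sperm and at 0.174 to 1.86 CPM in whole cauda sperm. They were lower in cauda sperm by 2.14 ± 0.47 (log2, SE, edgeR adjusted p 0.000683), in the comparison in which 12 of 14 members were higher. In the maturation series Sfmbt2 fragments were at 2.30 CPM in primary spermatocytes, 3.34 and 4.54 CPM in early and late round spermatids, 1.03 to 2.46 CPM in testicular sperm, 0.0838 to 0.602 CPM in cauda sperm and 0.156 to 0.188 CPM in epididymosomes. They were lower in cauda than in testicular sperm by 2.17 ± 0.47 (adjusted p 0.000112 by edgeR), as the members were in CPM there, and lower in epididymosomes than in testicular sperm (−3.57 ± 0.63, adjusted p 7.88e-06). In cauda sperm heads they were lower than in tails (−1.50 ± 0.48, adjusted p 0.0157).

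Fragments of the microRNA machinery were read from the same tables. With Sfmbt2 the list holds 10 genes. In whole cauda against testicular sperm 6 of 10 were lower and 0 higher, the 5 beside Sfmbt2 being Ago1, Ago2, Ago3, Ago4 and Dgcr8, by −1.27 to −3.09 (log2), beside 27.4% lower over all rows. In the maturation series 5 of 9 tested were lower and 3 higher, beside 29.4% and 42.1% over all rows, the higher ones being Drosha (2.87 ± 0.52), Xpo5 (2.03 ± 0.54) and Dicer1 (1.80 ± 0.47). Between cauda heads and tails 2 were higher, Drosha (3.91 ± 0.50) and Xpo5 (0.98 ± 0.33), and 2 lower of 10, beside 12.4% and 24.1%. In epididymosomes against testicular sperm 1 was higher and 5 lower of 9, beside 35.8% and 35.5%. Against cauda sperm 1 of 9 was lower, beside 25.6%, and after the fusion 0 of 9 passed, beside 6.9%.

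The substitution table gives mature strands rather than rows of the gene, and there mir-466 strands whose rows are short or empty in the other tables have reads. The 63 mature rows carried 27 distinct sets of values, since names that share a mature sequence repeat one another, and each distinct set is counted once below. The mir-669o-3p row differs from the mir-669a-3p group by 1 read in 1 library and is counted separately. Nearly the same reads therefore enter the counts and medians of members below as 2 members. Levels here are ppm of mature strands, which do not compare with the CPM of microRNA rows above. The most abundant in testis with 4-TU were the mir-669a-3p group (10 names, 1291 ppm) and the mir-467a-5p group (10 names, 1019 ppm). The mir-466 3p group of 14 names, listed here under mir-466b-6-3p, reached 524 ppm there. In cauda sperm with 4-TU the 3 groups had 2464, 1537 and 486 ppm, and in caput 389, 281 and 149.

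The percent deposited for a substitution is a mean over the positions of a base within the first 18 bases of the mature strand. T-to-C substitutions, the mark of 4-TU, were more frequent with 4-TU than without it for most members in caput epididymis. The mir-467a-5p group had 0.160% of U positions substituted with 4-TU (2917 reads) and 0.0599% without (9464 reads). The mir-669a-3-5p group (3 names) had 0.164% (2891 reads) and 0.0760% (4935 reads). The mir-669c-5p values were 0.180% (1527 reads) and 0.0841% (3122 reads). For the first 2 of these the 95% exact binomial intervals with and without 4-TU do not overlap, for mir-669c-5p they do, and they cover counting error only.

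With at least 100 reads in both caput libraries, 22 of 26 distinct members were higher with 4-TU, beside 82.8% of all rows that met the same minimum. The members' median was 0.202% with and 0.0986% without 4-TU, beside 0.122% and 0.0544% over all rows. The median of the members' own differences was 0.0987 percentage points, beside 0.0629 over all rows. In caput the share of members that were higher was near the background.

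In testis, marked neg in the titles, 12 of 20 members were higher with 4-TU, beside 42.0% of all rows. The median difference there was 0.0217 points, beside −0.0048. In cauda sperm 9 of 13 were higher, beside 58.3%, and the median difference was 0.0288 points, beside 0.0108. That median is the difference of the mir-669a-3p group, whose reads mir-669o-3p repeats there. The mir-467a-5p group stood at 0.0580 and 0.0551% in testis with and without 4-TU, and in cauda sperm at 0.0388% with it (1288 reads) and 0.102% without (653 reads), lower with 4-TU. With a minimum of 20 reads 12 of 27 members were higher in testis, with a median difference of −0.0053 points, beside 107 of 291 rows. With 1 library a group there is no test of these differences, and substitutions of 1 read are not independent.

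**Figure D5:**
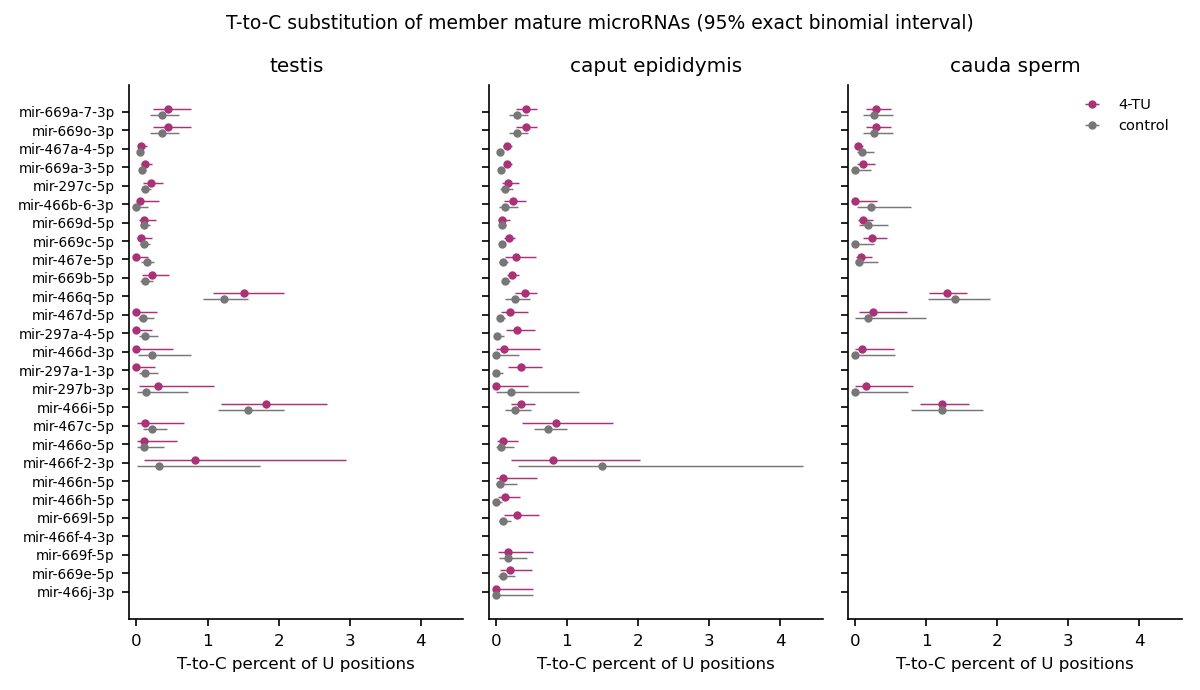
T-to-C substitution as percent of U positions for each distinct member mature microRNA with at least 100 reads in both libraries of a tissue, with 4-TU (purple) and without (grey), in testis, caput epididymis and cauda sperm; bars are 95% exact binomial intervals and a name stands for all names with the same values. Most purple points of the caput panel lie to the right of the grey ones (22 of 26), and mir-466q-5p and mir-466i-5p lie above 1% in testis and cauda sperm in both libraries.

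Among members with at least 100 reads, a pair stood apart in T-to-C in every library of testis and cauda sperm, whatever the treatment. The mir-466i-5p strand had 1.83% with 4-TU and 1.56% without in testis and 1.23% and 1.22% in cauda sperm. The mir-466q-5p strand had 1.52% and 1.23% in testis and 1.29% and 1.41% in cauda sperm. In caput both were lower, at 0.354% and 0.271% for mir-466i-5p and at 0.406% and 0.270% for mir-466q-5p. Their 95% exact binomial intervals with and without 4-TU overlap in each tissue. G-to-T substitutions of mir-466i-5p were at 1.97% with 4-TU and 2.63% without in testis and at 1.11% and 2.28% in cauda sperm. Its G-to-A substitutions were lower, at 0.146% and 0.266% and at 0.661% and 0.304%. A high level in these libraries was thus not particular to T-to-C.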

How the data were processed

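Sequenced RNA was under 40 nt and came from mouse sperm, testis, epididymis and epididymosomes. The authors deposited, per the file headers, unscaled read counts for microRNA, tRNA, rRNA and repeat rows, expected counts (not whole) for gene rows, and, in the substitution table, read counts and the percent of each substitution. The build was mm10, per the submitters' processing notes and neither an aligner nor a counting program is named in what was used here. Of the percent values, 99.145% gave whole numbers of substitutions within 0.01.

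Expected counts were rounded. The 28S, 18S and 5.8S rows were left out of totals because the 45S row holds their reads, and 27 gene rows with date-like names were left out of the 5 tables with gene rows. Columns of per-library values that the labels do not list, 4 in number, were not used. High wash replicate 4 is titled mid, and its wash label was followed. The mock fusion libraries occur in 2 tables with the same values and were used once.

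Each table was fitted whole with edgeR 4.0.16 (limma 3.58.1, R 4.3.3): filterByExpr, trimmed mean of M values (TMM) scaling, robust quasi-likelihood F test, and Benjamini-Hochberg adjustment over all rows tested, threshold 0.05. Wash was a term for heads and tails, and acid or base for tissue. Each fit was tested on simulated data. Alternatives were other scalings (library totals, RLE size factors, microRNA rows only), no filter, identical rows collapsed, DESeq2 1.42.0, the replicate number as a block and leaving out each library; for the maturation series, the number ending the titles as a term and paired cauda libraries summed were added after seeing the data. Deviations from group means of same-numbered libraries correlated in every pair for the washes (0.151 to 0.495), for PNK in caput sperm (0.106 to 0.186) and for PNK in cauda epididymis (0.422 to 0.454), so the blocked values stand beside those results; for the washes the pairing is the set number in the titles. Intervals are 95% exact Clopper-Pearson. Python 3.11.15, numpy 2.4.6, pandas 2.3.3, scipy 1.17.1 and matplotlib 3.10.9 were used.

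Named in the text are, per table, the 6 members with the highest mean CPM, per comparison up to 6 called members with the largest log2 fold change, and in the substitution table members with at least 100 reads in both libraries of a tissue; other named members were chosen after their values were seen. The members and lists were chosen with earlier results of these data known. Sequences are from RefSeq, build GRCm38.p6, and positions of Sfmbt2 from GENCODE.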

Additional observations from a re-analysis of the deposited data

Results flagged for a closer look

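The summed members gave opposite directions for cauda against testicular sperm in 2 tables. The log2 ratio of mean CPM was 1.374 for whole sperm in the heads and tails table and −2.163 in the maturation series, with no overlap of libraries in either table. The difference between the tables was not tested.

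In groups of 4 to 10 libraries, 1 library stood far from the others in 15 of 90 combinations of group and family. The rule takes about 1 in 20 as chance. That rate does not hold where the group median is 0, since a single read can then give the largest gap. Sums over all members also hold the family sums. The 15 can therefore not be set against chance. The detergent-washed tail library of cauda sperm was highest for Mir297 (28.77 CPM, group median 4.06) and for Mir467 (55.013 CPM, median 16.9).

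Among epididymis libraries, AlkB base replicate 2 had 0.25554 CPM of Mir297 (median 0) on 5 reads. PNK 3 minus acid replicate 2 was high for Mir467 (11.184 CPM, median 1.25), on 4 reads of Mir467d and 2 of Mir467a-5. PNK 3 minus base replicate 2 was low for Mir669 (2.799 CPM, median 9.31), on 2 reads of Mir669a-2 and 1 of Mir669a-3. RppH acid replicate 2 was high for Mir297 (2.093 CPM), Mir466 (0.52326 CPM) and Mir669 (9.4186 CPM), on 4, 1 and 18 reads.

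Among testis libraries, AlkB base replicate 2 was low for Mir466 (0.14434 CPM, median 0.718), on 1 read of Mir466i. PNK base replicate 2 was high for Mir466 (4.3851 CPM) on 3 reads over all members. PNK 3 minus base replicate 1 had 0.29385 CPM and RppH acid replicate 1 had 0.30969 CPM of Mir297, both with a median of 0. The former rests on 1 read of Mir297b and the latter on 1 read each of Mir297b and Mir297a-3. RppH acid replicate 2 was high for Mir467 (2.2971 CPM), on 5 reads of Mir467d and 1 each of Mir467a-2 and Mir467b. RppH base replicate 1 was high for Mir669 (59.804 CPM, median 1.87), on 16 reads of Mir669a-2 and 13 of Mir669a-3. All of its member reads were Mir669, so the sum over members was the same 59.804 CPM. The mir-200 list ran from 152.7 to 8034 CPM over the RppH base testis libraries.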

How the results depend on the processing

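Scaling on microRNA rows alone changed most results. Members called were then 1 and 3 higher for the low and mid wash, 0 for heads against tails, 2 for whole cauda against testicular sperm, 1 for PNK in cauda epididymis, 0 for cauda against testicular sperm in the maturation series and 5 for epididymosomes against testicular sperm. The direction turned for epididymis against testis (6 lower) and epididymosomes against cauda sperm (8 lower). Named members that changed sign were Mir467d in heads (0.095), Mir467d, Mir669a-3 and Mir669a-2 in epididymis against testis (−0.672, −0.733 and −0.79), Mir467d and Mir467b in the maturation series (0.066 and 0.221), and Mir669a-3, Mir669a-2 and Mir467a-4 in epididymosomes against cauda sperm (−0.571, −0.606 and −0.672). That filter left no member to test in the PNK comparisons of sperm.

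As a share of microRNA reads the log2 ratios of the summed members were 1.021, 1.321 and 1.032 for the low, mid and high wash, 0.04 and 0.245 for heads against tails in cauda and testicular sperm, −0.088 for whole cauda against testicular sperm, −0.846 and 1.463 for PNK in cauda and caput sperm, 1.276 for cauda against caput sperm, −0.884 and 0.253 for PNK in epididymis and testis, −2.167 for epididymis against testis, 0.876 for cauda against testicular sperm in the maturation series, and −2.589 and −1.713 for epididymosomes against cauda and testicular sperm.

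With the set as a replicate block 2 and 5 members were called at the mid and high wash, and with microRNA rows alone and the block 2, 6 and 4 at the low, mid and high wash. With a block 1 was called for PNK in caput sperm, and the block changed no other call by over 1.5 times except 3 for PNK in epididymis, where its 5 tested members outnumber the 2 of the fit without it. The fusion and mock libraries share numbers in their titles whose meaning the labels do not give (correlation 0.173 over 2 pairs), and with that number as a block 0 of 14 members passed, beside 16% of all rows. Shares in brackets are of all rows in either direction. RLE size factors gave 1 call in heads against tails (27.8%), 0 for PNK in caput sperm (46.6%) and 5 for epididymosomes against cauda sperm (41.1%). DESeq2 gave 1 (13.5%), 0 (2.87%) and 5 (16.2%) for these, 5 for PNK in epididymis (37.2%) and 6 for epididymis against testis (65.9%). Library totals alone gave 5 for epididymosomes against cauda sperm (29.5%). They also shifted the median of all rows to 0.461 and 0.447 at the mid and high wash, from 0.02. No filter gave 4 and 0 calls for PNK in cauda (5.26%) and caput sperm (2.73%), 1 for cauda against caput sperm (3.26%), 13 for PNK in epididymis (44.4%) and 5 for epididymosomes against cauda sperm (19.3%). Heads against tails gave 2 within the hypotonic wash, and 0 within the detergent wash, where 1 library stands against 1 and is assumed to vary like the other groups. With the number ending the titles as a term, epididymosomes gave 0 calls against cauda (13.7%) and 2 against testicular sperm (51%). With cauda sperm libraries that share a title number summed, epididymosomes gave 5 against cauda sperm (36.3%), and the other 2 comparisons of that series gave 10 and 0, as without summing. A minimum of 500 reads left 6 of 6, 9 of 10 and 2 of 3 members higher with 4-TU in testis, caput and cauda sperm, beside 63 of 145, 186 of 202 and 77 of 114 rows, and a minimum of 20 left 12 of 27, 22 of 27 and 11 of 19, beside 107 of 291, 230 of 310 and 139 of 275. At 500 reads the 2 members higher in cauda sperm were the mir-669a-3p group and mir-669o-3p, which hold the same reads there. The causes were not tested.

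Leaving out single libraries gave 0 calls throughout for the 3 washes, testicular heads against tails, cauda against caput sperm, the interaction and PNK in testis. Elsewhere it gave 1 to 8 for heads against tails, 7 to 12 for whole cauda against testicular sperm, 1 for PNK in cauda sperm, 0 to 2 in caput sperm, 2 to 3 in epididymis, 0 to 5 for epididymis against testis, 6 to 12 for the maturation series, 2 to 9 and 0 to 3 for epididymosomes against cauda and testicular sperm, and 0 to 2 for the fusion. Heads against tails gave 1 without hypotonic head replicate 2 or the detergent tails, 2 without the detergent heads and 3 without hypotonic tail replicate 3. Epididymosomes against cauda sperm gave 9 without cauda sperm replicate 1 or 7, 8 without 5 and 6 without 4 or 6. The summed log2 ratio of cauda to caput sperm ran from −0.266 to 0.227, above 0 without cauda replicate 1 or caput replicate 1 or 3.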

Other observations

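In the substitution table mir-466i-5p and mir-466q-5p also carried T-to-A substitutions, at 9.87% and 7.67% of U positions in caput with 4-TU and at 15.8% and 14.7% in caput without it. In testis and cauda sperm mir-466i-5p had 1.39% and 1.98% with 4-TU and 2.69% and 1.47% without.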
